A study of Homo sapiens with 25 samples.

Results

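Lamin B1 (LMNB1) and trimethylated histone H3 lysine 9 (H3K9me3) were compared along the genome of MDA-MB-231 cells in which PML had been silenced. The 2 knockdown domain lists held 661 domains, 380 of LMNB1 and 281 of H3K9me3, of 1921 in the 5 domain lists of the series. Each 1 kb bin of chromosomes 1 to 22 and X, assembly gaps left out, was put into LMNB1 only, H3K9me3 only, both or neither, with no other choice of members.

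The series is a chromatin immunoprecipitation sequencing (ChIP-seq) study of 25 libraries from this human triple-negative breast cancer cell line. The lists rest on 4 libraries, 2 of LMNB1 and 2 of H3K9me3, from cells with a lentiviral short hairpin RNA against PML, a protein that assembles the nuclear bodies named after it. All cells were fixed with disuccinimidyl glutarate and then formaldehyde. Control cells had 2 libraries per target as well, and H3K4me3 and H3K27ac were profiled in the same knockdown and control conditions. One cell line was used, and the labels do not say whether replicates came from separate cultures or hairpins. Each target and condition had 1 list and no value per replicate, so no difference below has a replicate check, and none was tested. A domain or peak that a list lacks may still exist below the threshold its authors set.

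Lamins form the meshwork under the inner nuclear membrane, and chromatin that touches it, in lamina-associated domains, is mostly gene-poor and silent. H3K9me3 marks constitutive heterochromatin; HP1 proteins bind it, and it covers repeats, tandem gene families and clusters of zinc-finger genes. H3K4me3 marks promoters of active or poised genes, and H3K27ac marks active promoters and enhancers.

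The cell line was checked against markers at promoters, meaning an authors' peak within 1 kb of a gene's start. All 7 basal and mesenchymal markers, CAV1, VIM and EGFR among them, had knockdown peaks of H3K4me3 and of H3K27ac. Of 7 luminal markers 5 had H3K4me3 and 2 H3K27ac, of 13 immune and stromal markers 3 and 1 (CD14, CD68 and PDGFRA for H3K4me3), and of 10 liver and neuron markers SYT1 alone had either. The keratins KRT5, KRT14 and KRT17 of a wider basal list of 10 genes had no H3K4me3 promoter peak, and 15 of a wider luminal list of 20 had one, so these peaks do not set basal apart from luminal genes. A promoter peak does not measure expression. Read depth is unknown for these lists.

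Promoter sequences of 6 genes show what the classes hold: for each class, the gene with the highest H3K4me3 promoter fold and an unmarked gene whose count of CpG dinucleotides is the median of its unmarked genes. Each is hg38 sequence just before the gene's start, 5′ to 3′ on the gene's strand, without bases that GENCODE annotates as an exon of a protein-coding gene. CG dinucleotides are in capitals, because CpG-rich promoters are the usual sites of H3K4me3. ZC3H15 (chr2:186486010-186486252, plus strand) and TNNI3K (chr1:74235137-74235386, plus) lay in LMNB1 only. CHCHD4 (chr3:14124871-14125014, minus) and MATN1 (chr1:30723586-30723835, minus) lay in H3K9me3 only, and ZSCAN5A (chr19:56314926-56315089, minus) and SLC5A9 (chr1:48222466-48222684, plus) in both.
ZC3H15: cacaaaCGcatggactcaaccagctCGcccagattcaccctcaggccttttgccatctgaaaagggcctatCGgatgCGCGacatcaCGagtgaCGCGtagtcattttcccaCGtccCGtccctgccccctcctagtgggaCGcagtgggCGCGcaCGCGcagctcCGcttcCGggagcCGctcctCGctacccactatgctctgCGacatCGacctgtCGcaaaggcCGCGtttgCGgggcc
TNNI3K: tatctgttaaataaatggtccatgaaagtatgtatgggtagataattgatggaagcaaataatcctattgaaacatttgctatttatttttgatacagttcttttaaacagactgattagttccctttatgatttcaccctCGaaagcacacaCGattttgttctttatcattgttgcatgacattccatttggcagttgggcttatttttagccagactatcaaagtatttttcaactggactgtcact
CHCHD4: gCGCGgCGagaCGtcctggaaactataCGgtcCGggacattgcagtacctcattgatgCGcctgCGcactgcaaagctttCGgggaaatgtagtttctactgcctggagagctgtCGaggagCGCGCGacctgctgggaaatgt
MATN1: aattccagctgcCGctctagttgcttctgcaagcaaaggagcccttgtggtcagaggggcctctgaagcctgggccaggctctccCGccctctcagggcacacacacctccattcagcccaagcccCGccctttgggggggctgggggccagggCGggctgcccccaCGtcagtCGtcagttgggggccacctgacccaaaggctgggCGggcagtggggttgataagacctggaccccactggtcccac
ZSCAN5A: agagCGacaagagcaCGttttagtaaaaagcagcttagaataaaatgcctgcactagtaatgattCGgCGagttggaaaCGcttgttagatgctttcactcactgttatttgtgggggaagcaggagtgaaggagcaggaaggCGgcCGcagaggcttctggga
SLC5A9: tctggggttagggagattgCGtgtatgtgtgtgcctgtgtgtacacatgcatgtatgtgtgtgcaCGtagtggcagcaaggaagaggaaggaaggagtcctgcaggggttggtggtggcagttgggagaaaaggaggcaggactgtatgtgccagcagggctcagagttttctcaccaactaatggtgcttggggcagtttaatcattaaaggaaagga
The printed stretches hold 25 CpG in 243 bases for ZC3H15 and 2 in 250 for TNNI3K. CHCHD4 has 13 in 144 and MATN1 7 in 250. ZSCAN5A has 7 in 164 and SLC5A9 2 in 219.

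Most domain sequence in the knockdown held 1 target only, yet each target covered more of the other than of the whole genome. LMNB1 only covered 788 Mb (27.1% of 2911 Mb of gap-free sequence), H3K9me3 only 203 Mb (6.97%) and both 158 Mb (5.44%). The shared sequence was 16.7% of the LMNB1 length, while H3K9me3 covered 12.4% of all sequence. The shared sequence was 43.9% of the H3K9me3 length, while LMNB1 covered 32.5% of all sequence. With only the higher-scoring domains of each list, it was 77.0 Mb, 10.3% of LMNB1 and 31.3% of H3K9me3. Those lists were shorter, with 671 Mb in LMNB1 only and 169 Mb in H3K9me3 only. The 12.4% and 32.5% of the full lists are therefore no baseline for these shares. In the control lists the shared sequence was 480 Mb, 48.1% of LMNB1 and 76.4% of H3K9me3. The union of the targets took 39.4% of the genome there, against 39.5% in the knockdown. The H3K9me3 list itself was shorter in the knockdown, at 361 Mb in 281 domains against 629 Mb in 430 in the control. LMNB1 domains covered 947 Mb against 998 Mb. The knockdown and control lists come from different libraries, and their bounds lie on different grids, of 22 kb (LMNB1) and 35 kb (H3K9me3) in the knockdown and 17 and 23 kb in the control.

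The stretches of the 3 classes differed in length. LMNB1 only formed 369 unbroken stretches with a median of 1298 kb and a longest of 18986 kb, and 217 of them exceeded 1 Mb. H3K9me3 only formed 292 with a median of 595 kb and a longest of 5005 kb, and both formed 131 with a median of 990 kb and a longest of 4752 kb. Of stretches under 100 kb, 37 were LMNB1 only, 51 H3K9me3 only and 1 both. Each of the 262 borders of a stretch in both faced 1 of the other domain classes: 120 faced LMNB1 only and 142 faced H3K9me3 only. A border between both and neither would need an LMNB1 domain and an H3K9me3 domain to end in the same bin. The bounds of the lists lie on different grids, so the absence of such borders follows largely from how the classes are built. Of the borders of LMNB1 only, 618 of 738 faced neither, and of those of H3K9me3 only 440 of 582. The rest faced both, and no contrast with the borders of both is read from these counts.

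Most domains of either target lay apart from the other. Of the 380 LMNB1 domains, 262 had no H3K9me3 bin, 33 had under 50% of their length covered, 45 had 50% or more but not all, and 40 lay inside H3K9me3 domains whole. Of the 281 H3K9me3 domains, 154 had no LMNB1 bin, 10 had under 50% covered, 88 had 50% or more but not all, and 29 lay whole inside LMNB1. The H3K9me3 domains without LMNB1 were the shorter ones, with a median of 840 kb against 1278 kb for those covered by 50% or more but not all. Their median domain score in the authors' deposited list was 13.5, against 13.8 for those under 50% covered, 19.1 for those covered by 50% or more but not all and 13.7 for those wholly inside LMNB1, so the score did not follow the overlap. Per Mb of domain it was 17.3 without LMNB1 and 14.9 at 50% or more but not all. The score has no stated unit and was read within its own list only.

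The longest stretches show the kind of sequence in each class. The longest of LMNB1 only was chr13:52866001-71852000, with 15 protein-coding genes, among them OLFM4, the PRR20 genes and the protocadherin genes PCDH9 and PCDH20, and a GC content of 35.1%. The next was chr7:112926001-127424000 with 47 genes, including BMT2, GPR85, the caveolin genes CAV1 and CAV2 and the receptor tyrosine kinase gene MET. The third was chr1:185460001-199848000, with 36 genes, among them HMCN1, PRG4, TPR and the prostaglandin synthase gene PTGS2. In these 3 stretches 5, 28 and 20 genes had an H3K4me3 promoter peak.

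H3K9me3 only had its longest stretch at chr7:67340001-72345000, over AUTS2 and GALNT17, with 1 H3K4me3 peak, 4 H3K27ac peaks and a GC content of 43.2%. By length it was followed by chr12:128656001-131705000 (SLC15A4, GLT1D1, TMEM132D and FZD10 among 9 genes) and chr19:50820001-53795000. The last held 89 genes, opening with the kallikrein genes KLK1, KLK15, KLK3 and KLK2 and running through a zinc-finger cluster, and 43 of its genes had an H3K4me3 promoter peak. The stretch of chromosome 7 was 99.9% H3K9me3 only in the control lists too, and that of chromosome 19 was 68.7% H3K9me3 only and 31.3% neither.

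The longest stretch in both was chr2:3828001-8580000, with SOX11, CMPK2, RSAD2 and RNF144A, 2 H3K4me3 peaks and 7 H3K27ac peaks. It belonged to the longest H3K9me3 domain, 8400 kb, of which 71.5% lay in LMNB1 domains. The next, chr19:19778001-24200000, was a zinc-finger cluster of 38 genes that opens with ZNF506, ZNF253, ZNF93 and ZNF682, and 27 of the 38 had an H3K4me3 promoter peak. The third, chr19:28105001-32305000, held 9 genes, among them UQCRFS1, POP4 and the cyclin E gene CCNE1. All 3 were at least 99.0% in both in the control lists.

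The classes divided chromosomes unevenly. LMNB1 only ranged from 1.96% of chromosome 19 to 40.6% of chromosome 11, with a median of 26.6% over 23 chromosomes. H3K9me3 only ranged from 2.96% (chromosome 13) to 12.7% (chromosome 19), with a median of 6.71%. Both was 0 on chromosomes 4, 13 and X, had a median of 4.85%, and reached 20.4% on chromosome 19, 20.6% on chromosome 22 and 24.0% on chromosome 16.

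As a share of the LMNB1 length, overlap was highest on chromosomes 16, 19 and 22, although in length chromosome 1 held 17.3 Mb of both, second to 19.7 Mb on chromosome 16. H3K9me3 domains took 91.3% of the LMNB1 length of chromosome 19, 85.2% on chromosome 22 and 63.0% on chromosome 16, against a median of 13.1% over chromosomes. LMNB1 domains took 79.9% of the H3K9me3 length on chromosome 16, 77.5% on chromosome 22 and 61.7% on chromosome 19, against a median of 39.3%. Chromosome X was nearly bare, with 3.85% LMNB1 only and 3.28% H3K9me3 only. Copy number of this cancer line was not tested.

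**Figure D1:**
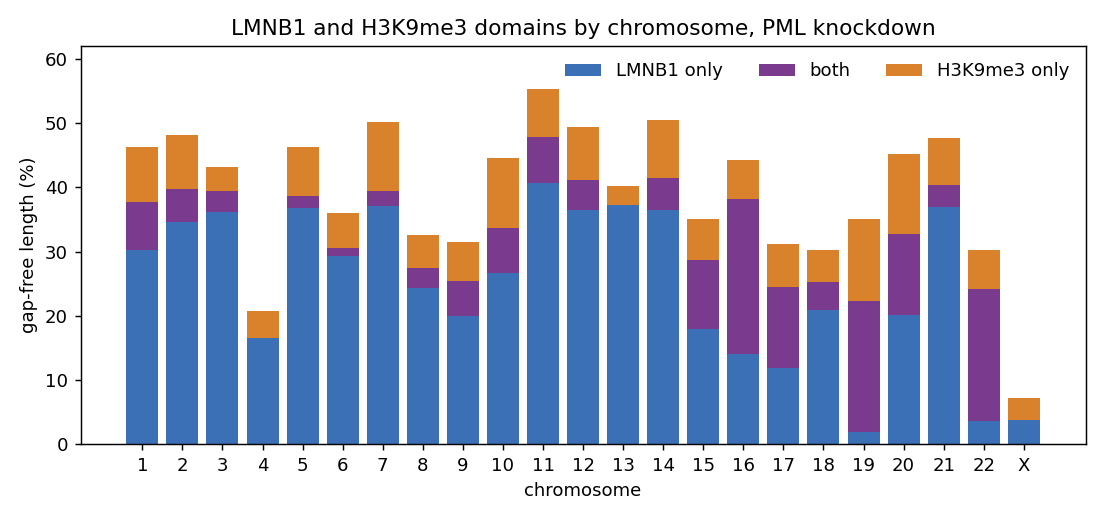
Stacked bars give the percentage of each chromosome's gap-free length in LMNB1 only (blue), both (purple) and H3K9me3 only (orange) in the PML knockdown lists. Purple is absent on chromosomes 4, 13 and X and outweighs blue on chromosomes 16, 17, 19 and 22.

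H3K9me3 without LMNB1 lay towards chromosome ends. The outer 5% at each end, 9.61% of all gap-free sequence, held 32.2% of H3K9me3 only, 19.5% of both and 2.35% of LMNB1 only. The median distance to the nearer chromosome end was 13.3 Mb, 19.7 Mb and 44.1 Mb, against 34.4 Mb for all sequence. On 20 of 23 chromosomes the median distance was greater for LMNB1 only than for H3K9me3 only.

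Along chromosomes cut into 20 equal parts, H3K9me3 only covered 19.95% of the first part and 26.2% of the last. LMNB1 only covered 10.4% and 3.40% there. Both covered 9.22% and 12.6%.

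**Figure D2:**
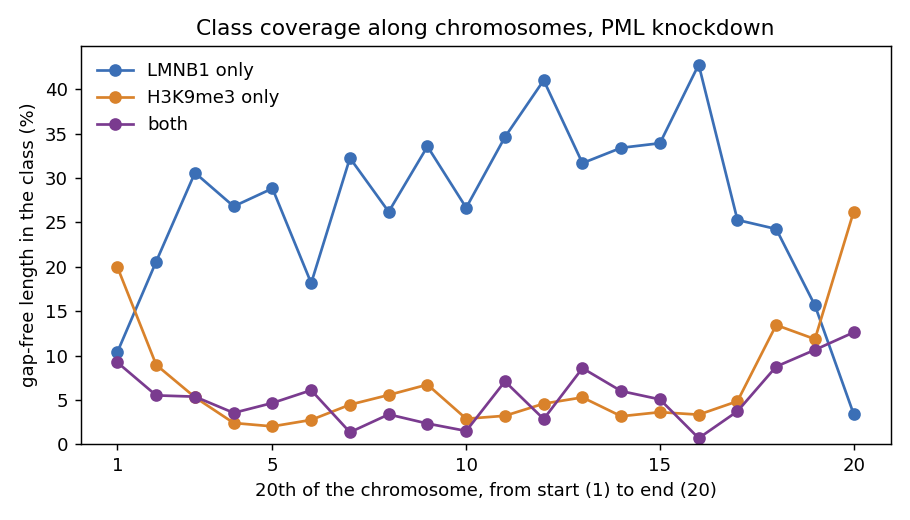
Lines give the percentage of gap-free length in each class (y axis) in 20 equal parts of the chromosomes from start to end (x axis), pooled over 23 chromosomes of the PML knockdown lists. H3K9me3 only is highest in the first and last part, at 19.95% and 26.2%, where LMNB1 only is lowest, at 10.4% and 3.40%.

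Base composition separated the classes in 1 order. GC content was 36.8% in LMNB1 only, 42.4% in both and 45.8% in H3K9me3 only, against 40.9% in all sequence, and CpG per kb was 6.22, 9.27 and 12.99. The order held on each chromosome that had the classes: LMNB1 only was below H3K9me3 only on 23 of 23, LMNB1 only below both on 20 of 20, and both below H3K9me3 only on 20 of 20. By chromosome, GC ranged from 35.3% to 42.4% in LMNB1 only, from 40.6% to 46.2% in both and from 43.7% to 49.8% in H3K9me3 only. GC content affects sequencing coverage, and its part in the domain calls was not tested.

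Regional GC, the mean over 500 kb, gave the same split. The lowest decile of regional GC was 79.6% LMNB1 only and held no H3K9me3 only bin. In the ninth decile LMNB1 only took 0.68% and H3K9me3 only 21.6%. Both peaked in the middle, at 13.7% of the seventh decile.

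**Figure D3:**
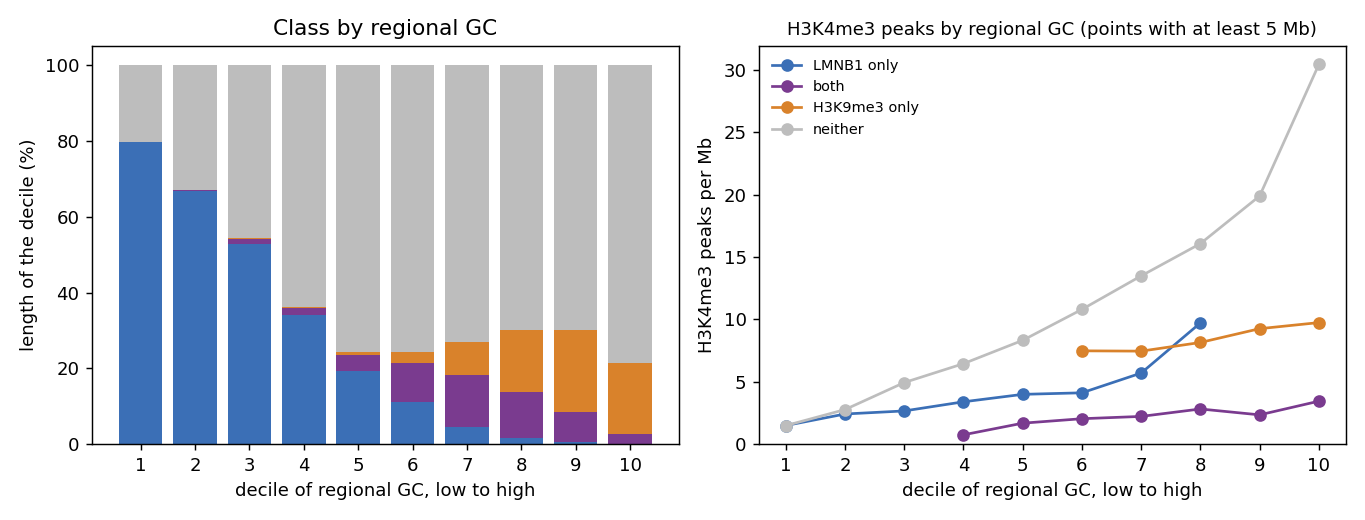
Left, stacked bars give the percentage of length in each class by decile of regional GC (colours as in the right panel); right, points give H3K4me3 knockdown peaks per Mb in each class for deciles in which the class has at least 5 Mb. LMNB1 only fills 79.6% of the lowest decile, and both has fewer H3K4me3 peaks per Mb than the other classes in each decile plotted.

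Protein-coding genes were sparse in LMNB1 only and in both. Of 19970 genes, 1731 started in LMNB1 only (8.67%), 1258 in H3K9me3 only (6.30%) and 460 in both (2.30%). These are 2.196, 6.20 and 2.90 genes per Mb, against 6.86 over all sequence and 9.38 in neither. With the higher-scoring domains, both held 1.84. LMNB1 only had fewer genes per Mb than H3K9me3 only on 23 of 23 chromosomes, and both fewer than H3K9me3 only on 18 of 20, the exceptions being chromosomes 1 and 17. Whether LMNB1 only or both was the poorer varied: LMNB1 only was lower on 6 of 20.

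Genes also differed in size and kind. The median gene length was 42.7 kb in LMNB1 only, 25.7 kb in H3K9me3 only and 22.4 kb in both, against 27.5 kb over all genes. Long non-coding RNA genes numbered 3.68, 9.06 and 6.75 per Mb. In both, the 6.75 long non-coding genes per Mb stood beside 2.90 protein-coding ones.

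Active peaks were scarcest where the targets coincided, and H3K9me3 only was closer to the rest of the genome. H3K4me3 knockdown peaks numbered 2.26 per Mb in both (358 peaks), 2.64 in LMNB1 only (2084) and 8.72 in H3K9me3 only (1769), against 13.4 in neither and 9.54 over all sequence. H3K27ac peaks numbered 4.31 per Mb in both (683), 5.27 in LMNB1 only (4153) and 15.01 in H3K9me3 only (3044), against 20.3 in neither and 14.98 over all sequence.

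These orders were also read by chromosome. Both had fewer H3K4me3 peaks per Mb than H3K9me3 only on 20 of 20 chromosomes and fewer than LMNB1 only on 17 of 20, and for H3K27ac the counts were 20 and 16 of 20. LMNB1 only was below H3K9me3 only on 21 of 23 for each mark, the exceptions being chromosomes 19 and 22, which hold little LMNB1 only. Chromosomes are not replicates of a condition.

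At like base composition both still had the fewest peaks, but LMNB1 only and H3K9me3 only lay closer together. In the sixth to eighth deciles of regional GC, each weighted equally, H3K4me3 peaks numbered 2.37 per Mb in both, 6.51 in LMNB1 only, 7.70 in H3K9me3 only and 13.5 in neither. H3K27ac peaks numbered 4.62, 11.3, 14.7 and 21.5 per Mb. These deciles held 51.3 of the 788 Mb of LMNB1 only, 81.5 of 203 Mb of H3K9me3 only and 104 of 158 Mb of both. They are the GC-rich end of LMNB1 only, whose 90th percentile of regional GC was 39.4%, below the sixth decile's start at 39.98%. In the sixth decile LMNB1 only had 4.12 H3K4me3 peaks per Mb and H3K9me3 only 7.48, and in the seventh 5.70 and 7.46. In the eighth, which held 5.04 Mb of LMNB1 only, the values were 9.72 and 8.15. With these deciles weighted equally, LMNB1 only held 7.09 genes per Mb, more than the 4.41 of H3K9me3 only and the 2.86 of both. Over all sequence LMNB1 only was the poorest domain class, at 2.196, and H3K9me3 only was above both there too.

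Peaks were denser near borders than deep inside in each of the 3 domain classes. Within 50 kb of a border of its stretch, LMNB1 only had 5.16 H3K4me3 peaks per Mb, H3K9me3 only 12.5 and both 3.87. More than 800 kb inside, the values were 2.64, 7.86 and 2.46. At that depth LMNB1 only still had 388 Mb, 49.2% of its length, against 7.02% for H3K9me3 only and 14.9% for both.

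The peaks inside domains were weaker for H3K4me3 and lay further from genes. Median H3K4me3 fold enrichment, the authors' deposited ratio, was 8.18 in LMNB1 only, 7.75 in H3K9me3 only and 7.19 in both, against 12.9 in neither. For H3K27ac it was 6.44, 6.72 and 6.64, against 6.73. H3K4me3 peaks more than 1 kb from the start of any annotated gene made up 60.7%, 60.1% and 59.2% of the peaks, against 44.6% in neither. A control peak overlapped 70.9% of the H3K4me3 peaks in LMNB1 only, 60.3% in H3K9me3 only and 57.8% in both, against 74.6% in neither.

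With the full lists, promoters in both were the least often marked. An H3K4me3 promoter peak was present at 103 of 460 genes in both (22.4%, 95% exact Clopper-Pearson interval 18.7 to 26.5), 750 of 1731 in LMNB1 only (43.3%, 41.0 to 45.7) and 538 of 1258 in H3K9me3 only (42.8%, 40.0 to 45.6), against 63.7% of all genes. H3K27ac was present at 81 (17.6%, 14.2 to 21.4), 574 (33.2%, 30.9 to 35.4) and 403 (32.0%, 29.5 to 34.7), against 53.7% of all. Without chromosome 19 the H3K4me3 share was 14.7% in both, 42.8% in LMNB1 only and 40.2% in H3K9me3 only. With only the higher-scoring domains of each list it was 37.3%, 44.03% and 40.3%. Both was still the lowest there, but close to H3K9me3 only. Intervals were not computed for that setting, so no order of the classes is read from it. The intervals cover counting error only, and neighbouring genes are not independent. The intervals of LMNB1 only and H3K9me3 only overlap, so no order is read between them.

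Where an LMNB1-only promoter was marked, it was marked strongly. The median fold of H3K4me3 promoter peaks was 39.6 in LMNB1 only, 28.9 in H3K9me3 only and 30.2 in both, against 35.3 over all genes. Most marked genes also had a peak in the control list: 723 of 750, 502 of 538 and 95 of 103, against 12328 of 12725 over all genes.

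Promoter sequence differed along with the marks. The 250 bases before the start held a median of 10 CpG in LMNB1 only, 16 in H3K9me3 only and 5 in both, against 18 over all genes. The letters TATAAA, on either strand, were found in 16.9%, 9.62% and 25.2% of these windows, against 9.36% of all 19970. A match is a description and not a site of binding.

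Marking within promoters of like CpG count differed between classes in the CpG-rich ones, but both was not lowest at each count. Among promoters with 20 or more CpG, 41 of 108 in both were marked with H3K4me3 (38.0%, interval 28.8 to 47.8), 338 of 521 in H3K9me3 only (64.9%, 60.6 to 69.0) and 361 of 470 in LMNB1 only (76.8%, 72.7 to 80.6). In neither, 7139 of 8031 were marked (88.9%). Among promoters with 5 to 9 CpG, 20 of 50 in both (40.0%, interval 26.4 to 54.8), 41.0% in LMNB1 only and 34.9% in neither were marked, against 21.5% in H3K9me3 only. Among promoters with under 5 CpG, 1.83% in both, 4.90% in H3K9me3 only and 6.003% in LMNB1 only were marked. Of the sequences printed above, TNNI3K and SLC5A9 belong to these CpG-poor unmarked genes and ZC3H15 to the CpG-rich marked ones.

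**Figure D4:**
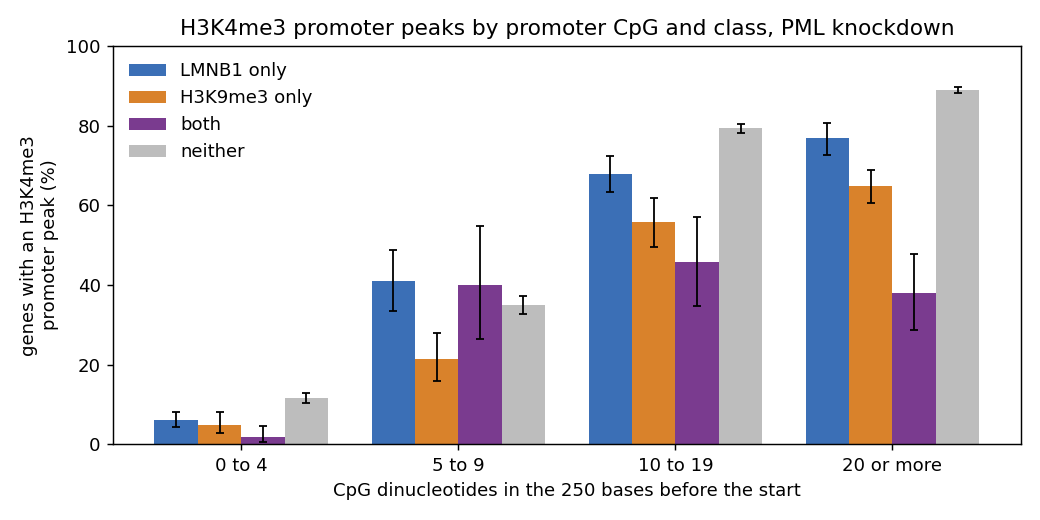
Bars give the percentage of protein-coding genes with an H3K4me3 knockdown promoter peak (y axis) by number of CpG in the 250 bases before the start (x axis) and by class; error bars are 95% exact binomial intervals, for counting error only. At 20 or more CpG the bars run from 38.0% in both to 88.9% in neither.

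In LMNB1 only the highest H3K4me3 folds were at ZC3H15 (139.6), RPE, a pentose phosphate pathway epimerase (138.2), CCDC59 and METTL25, which share 1 peak (132.2), and the kinetochore gene ZWINT (131.0). The highest H3K27ac folds there were at SCYL3 (87.6), GORAB (66.9), PFDN4 (62.7), DEPDC1 (61.8) and NUF2 (61.7), another kinetochore gene. All 10 also had both marks in the control lists.

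In H3K9me3 only the highest H3K4me3 folds were at CHCHD4, a mitochondrial import protein, and TMEM43 (a shared peak, 130.6), CAPN10 (122.9), COG2 (121.9) and TSSC4 (116.5). The highest H3K27ac folds were at MRPL46 and MRPS11, mitochondrial ribosomal protein genes with a shared peak (89.4), HDAC4 (72.3), ASB1 (67.6) and MYEOV (62.6). Of these 10 genes, 8 started outside the domains of both targets in the control lists, and MRPL46 and MRPS11 started in LMNB1 only.

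In both, zinc-finger genes led. The highest H3K4me3 folds were at ZSCAN5A (76.1), ZFP28 (73.7), ZNF317 (68.0), ZNF93 (66.4) and ZNF90 (62.6), all on chromosome 19. For H3K27ac they were ZSCAN5A (57.5), ZFP28 (37.0), TMEM260 (36.6), ZNF562 (35.7) and ZNF583 (32.7). All of them started in both in the control lists too.

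Zinc-finger genes made up much of what was marked inside shared domains. Genes with zinc-finger symbols were 41 of the 103 with H3K4me3 in both (39.8%), although they were 65 of its 460 genes. Of those 65, 63.1% were marked, against 15.7% of the 395 other genes. In H3K9me3 only, 125 of 141 zinc-finger genes (88.7%) and 413 of 1117 other genes (37.0%) were marked. Over the whole genome, 85.2% of 568 zinc-finger genes and 63.1% of other genes were marked. The zinc-finger share was thus near the general one in H3K9me3 only and below it in both. Of the other genes off chromosome 19, 14.7% were marked in both and 38.5% in H3K9me3 only.

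On chromosome 19 most ZNF genes, which encode DNA-binding repressors often directed at transposons, lay in H3K9me3 domains. Of 246, 90 were in H3K9me3 only, 54 in both, 22 in LMNB1 only and 80 in neither. Marked with H3K4me3 were 84 of the 90, 37 of the 54, 18 of the 22 and 72 of the 80. ZNF616 in H3K9me3 only had a fold of 104.0, ZNF45 in LMNB1 only 87.7, and ZNF317 in both the 68.0 given above. In the control lists 104 of the 246 were in both and 1 in LMNB1 only. Counting reads among near-identical zinc-finger genes is uncertain. On other chromosomes, 41 of 263 ZNF genes were in H3K9me3 only, 11 in LMNB1 only and 4 in both.

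Tandem families of tissue-restricted genes fell into the classes by cluster. Olfactory receptors, the odorant receptors of sensory neurons, were in LMNB1 only for 221 of 415, in both for 53 and in H3K9me3 only for 7. Chromosome 11 gave 147 of the 221, and chromosome 1 gave 37 of the 53, with a further 17 in LMNB1 only. In the control lists 262 of the 415 were in both. A single member inside a domain, OR52N2, had an H3K4me3 promoter peak, with a fold of 14.2.

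Keratins, the intermediate filaments of epithelia, were nearly all inside domains: 27 of 55 in H3K9me3 only, 18 in both and 8 in LMNB1 only. The type II cluster of chromosome 12 gave 25 of the 27, and the type I cluster of chromosome 17 all 18 in both. Marked with H3K4me3 among them were KRT80 (63.8) and KRT7 (29.0) in H3K9me3 only and KRT19 (3.63) in both. The basal keratin genes KRT5 and KRT17 lay in H3K9me3 only and KRT14 in both, and none of these 3 had an H3K4me3 promoter peak. Keratin-associated proteins, of hair, split by cluster too: all 34 on chromosome 17 were in both, and the 49 on chromosome 21 were 33 in LMNB1 only and 16 in H3K9me3 only.

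Further families were split between the classes. Of 29 SIGLEC, LILR and KIR genes, receptors of immune cells, 19 were in H3K9me3 only and 10 in neither. CEACAM and PSG genes, which encode cell adhesion and pregnancy-specific glycoproteins, had 12 of 22 in both. Of the serpins 10 of 35 were in H3K9me3 only, all of them the SERPINA cluster of chromosome 14. MAGE genes, testis antigens often re-expressed in tumours, had 11 of 34 in H3K9me3 only and 4 in LMNB1 only, and 6 of 43 chemokine genes, CCL2 and CCL7 among them, were in both. Of the genes inside domains in these families, those with H3K4me3 were CEACAM1 (4.17), PSG4 (2.67) and SERPINI1 (56.7).

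Neuronal genes leaned to LMNB1 only. Glutamate and GABA receptors, the fast neurotransmitter receptors, had 20 of 45 in LMNB1 only, 7 in H3K9me3 only and 5 in both, and GRIK2 (16.3) and GABRB1 (14.8) were among the 5 marked. Potassium channels had 21, 16 and 1 of 95. Cadherins and single protocadherins, adhesion molecules, had 14, 2 and 3 of 35, with H3K4me3 folds of 59.7 at PCDH9, 50.4 at PCDH20 and 20.4 at CDH4, the last in both. These counts can be read against the 8.67%, 6.30% and 2.30% of all genes.

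Several families lay outside domains. All 39 HOX genes, 53 clustered protocadherins, 19 HLA genes and 21 UGT genes started in neither, the class of 82.7% of all genes. Of 77 cytosolic ribosomal protein genes, RPS7 and RPL38 started in H3K9me3 only, with H3K4me3 folds of 77.4 and 61.0, and 75 in neither.

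**Figure D5:**
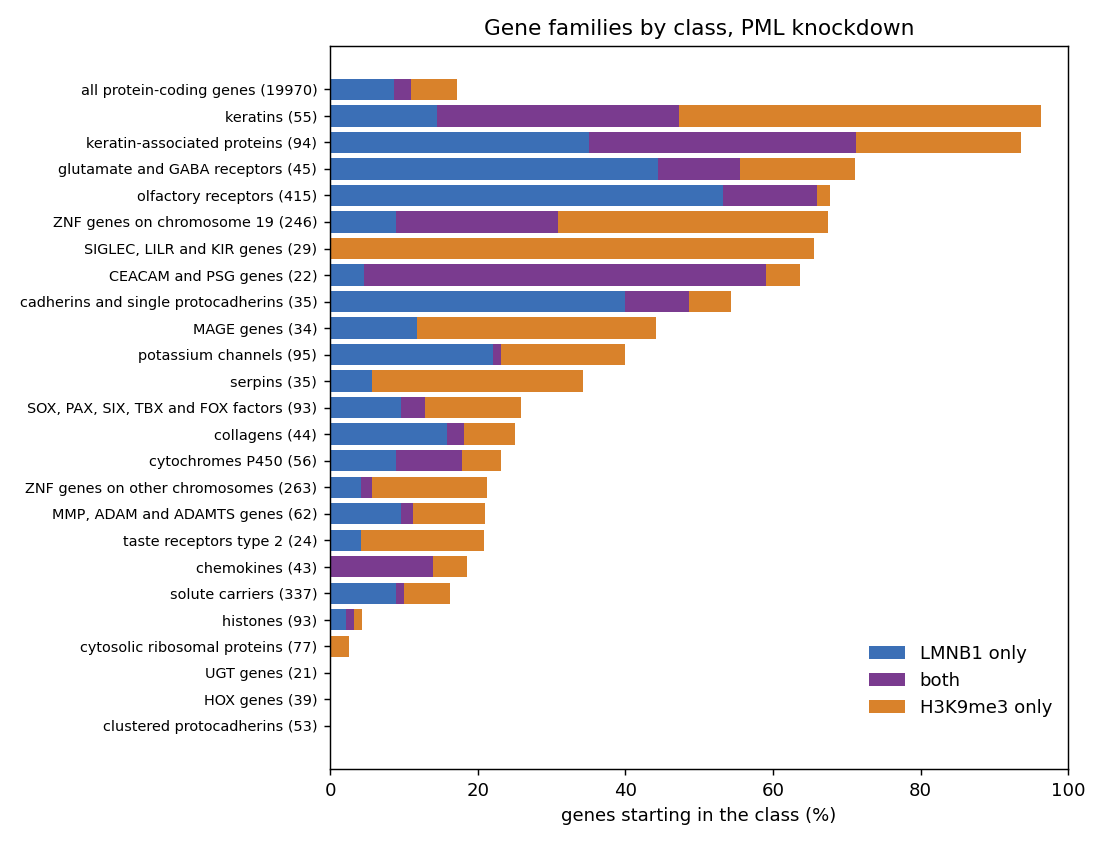
Bars give the percentage of each gene family of at least 20 members (number in parentheses) that starts in LMNB1 only, both and H3K9me3 only in the PML knockdown lists; the top bar is all 19970 protein-coding genes. Keratins and keratin-associated proteins are almost wholly inside domains, and olfactory receptors mostly in LMNB1 only.

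A few further clusters were looked up after the gene table had been seen, so their counts are descriptions of chosen cases. The epidermal genes of chromosome 1 that build the cornified envelope were in both for 14 of 19 LCE and 11 of 11 SPRR genes, and in H3K9me3 only for the other 5 LCE. All 15 kallikrein genes, secreted proteases of chromosome 19, started in H3K9me3 only, and all 15 were in neither in the control lists. The 8 GIMAP genes, immune GTPases, were in H3K9me3 only and had been in both. Of 16 MS4A genes, which include the B cell gene MS4A1, 14 were in LMNB1 only, and in the control lists 14 were in both. No LCE, SPRR, kallikrein or MS4A gene had an H3K4me3 promoter peak, and 1 GIMAP gene had one.

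Genes linked to metastasis in this cell line started in neither for 16 of 23, where 82.7% of all genes do. LMNB1 only held 5: PTGS2, with an H3K4me3 fold of 58.8 and an H3K27ac fold of 10.8, the collagen cross-linking enzyme LOX (20.8, no H3K27ac peak), the matrix glycoprotein TNC (9.48 and 9.96), and VCAM1 and KYNU, unmarked. The chemokine receptor gene CXCR4 lay in H3K9me3 only (10.2, no H3K27ac peak), and the gelatinase MMP2 lay in both and was unmarked. CXCR4 and LOX had been in neither in the control lists and TNC in both.

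Of 15 genes of the epithelial-mesenchymal transition, 3 were in LMNB1 only and 4 in H3K9me3 only. CDH11 (31.3) and ZEB2 (24.7) in LMNB1 only had H3K4me3, PRRX1 there had none, and of the 4 in H3K9me3 only TWIST2, FOXC2 and GSC had none and 1 that is not named here had one. Extracellular matrix genes had 8 of 20 inside domains. The fibroblast genes COL3A1, COL1A2, LUM, DCN and POSTN lay in LMNB1 only and COL6A3 in H3K9me3 only, all without H3K4me3. The metalloproteinase inhibitor TIMP3 in both (33.7) and the laminin gene LAMB3 in H3K9me3 only (23.6) were the marked ones.

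Of 20 interferon response genes 7 were inside domains, and all 7 had an H3K4me3 promoter peak, as did 11 of the 13 in neither. In LMNB1 only these were the RNA sensor IFIH1 (45.2), GBP1 (31.7), IFI44 (16.8) and IFI44L (14.5). In H3K9me3 only they were IFI27 (32.8), MX1 (24.1) and MX2 (11.1). IFI27, MX1 and MX2 had been in neither in the control lists, and GBP1, IFI44 and IFI44L in both.

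Of 10 basal genes 6 were inside domains. MET (68.5), CAV2 (39.9) and CAV1 (38.4), all in the chromosome 7 stretch named above, lay in LMNB1 only in both conditions and had H3K4me3. KRT5, KRT14 and KRT17 had no H3K4me3 promoter peak, although KRT5 had one of H3K27ac (7.44). All 4 luminal genes inside domains, of 20, had H3K4me3: MLPH in H3K9me3 only (84.8), FOXA1 (8.99) and PGR (5.50) in LMNB1 only and KRT19 in both (3.63). Among cell cycle genes, CCND1 (71.2) and PLK1 (71.1) lay in H3K9me3 only, from neither in the control, and CCNE1 (7.53) in both. The death receptor FAS (32.9) and the collagen hydroxylase PLOD2 (18.6) were in LMNB1 only. The genes of PML bodies (12), of H3K9 methylation and HP1 (14) and of housekeeping (16) all started in neither, the class of 82.7% of all genes, and of 15 lamina and envelope genes LEMD2 (20.1) started in H3K9me3 only.

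Finally, the knockdown classes were traced back to the control lists. Sequence in both was nearly all from both: 154 Mb, or 97.1%, was shared by the targets in the control lists. LMNB1 only came from LMNB1 only for 58.7% and from both for 36.1% (285 Mb). H3K9me3 only came from H3K9me3 only for 51.2%, from neither for 38.8% (78.8 Mb) and from both for 9.80%.

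The control origin went with composition and activity. Sequence that was in both in the control and LMNB1 only in the knockdown had a GC content of 37.6%, and sequence in both in each condition 42.3%. Their H3K4me3 knockdown peaks numbered 1.59 and 2.02 per Mb (control list 1.14 and 1.27). Sequence in H3K9me3 only that came from neither had a GC content of 46.8% and 668 genes, with 14.5 H3K4me3 knockdown peaks per Mb (control list 9.57). Sequence in H3K9me3 only in each condition had 5.33 per Mb (control list 3.39). The knockdown H3K4me3 list held 27760 peaks against 22211 in the control, and in sequence outside all domains in each condition the values were 13.96 and 11.4 per Mb.

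PML domains covered 90.8% of LMNB1 only, 74.7% of both and 7.37% of H3K9me3 only, against 6.89% of neither. The PML libraries carry no knockdown label. Within H3K9me3 only, 32.9% of the sequence that had been in both was in PML domains, against 0.52% of that from neither.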

How the data were processed

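MDA-MB-231 chromatin was profiled by ChIP-seq, with PML silenced by lentiviral hairpin where the labels say so. Per the submitters' processing notes, which give no roles, deepTools, MACS2 2.2.7.1, BWA 0.7.12-r1039, Picard 1.104 and hg38 were used. The deposited domain lists give 1 score per domain, with no unit stated. The deposited peak lists give a fold enrichment per peak, a ratio, and a −log10 q-value, lowest at about 1.3, which the authors' caller wrote. In the names of the peak files, ct was taken to mean control and pml to mean the knockdown, which is an assumption. Whether domains were called on pooled replicates, and the read depth, are not given in the sources used here, and no precision from counts can be given.

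Domains were compared in 1 kb bins (a bin belongs to a list when at least 50% of it does). A peak belongs to the class of its midpoint. Genes were 19970 protein-coding genes of GENCODE release 44, placed by the start of the canonical transcript, and promoters spanned 1 kb on either side. Promoter sequence was planned from RefSeq windows, which matched too few genes, so the 250 hg38 bases before the start were used. Scripts ran in Python 3.11.15 with scipy 1.17.1, pandas 2.3.3, numpy 2.4.6 and matplotlib 3.10.9, and overlaps were checked with bedtools 2.31.1 and on simulated lists. There are no tests, since each target and condition has 1 list. Members, gene lists and families were chosen with earlier results of these data known. Named genes were up to 4 in each of the 5 longest stretches per class, the 5 with the highest promoter fold per mark and class, members of the fixed lists inside domains, and up to 4 examples per family, with other genes of these stretches and clusters added after their values were seen. A gene of chromosome 8 is counted and not named. Libraries of H3K27me3 and input were not used here.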

Additional observations from a re-analysis of the deposited data

How the results depend on the processing

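The alternatives were domains of at least 500 kb, autosomes only, no chromosome 19, no bins within 35 kb of a border, domains scoring above their list's median, and stricter peaks or promoters of 2500 bp on either side. H3K9me3 only held more genes, H3K4me3 peaks and H3K27ac peaks per Mb than LMNB1 only and both in each setting run. LMNB1 only, which had the higher share of marked promoters, fell below H3K9me3 only in 2 of 7 settings, and both had fewer genes per Mb than LMNB1 only in 1 of 6. With the higher-scoring domains, fewer domains enter, and the shared length was 77.0 Mb, or 10.3% of LMNB1 and 31.3% of H3K9me3. Genes in both then numbered 1.84 per Mb. Of them 37.3% were marked, against 44.03% in LMNB1 only and 40.3% in H3K9me3 only, a smaller gap than with the full lists. The H3K9me3 share of LMNB1 was 16.8% on autosomes, 15.7% without chromosome 19 and 16.3% without borders. The LMNB1 share of H3K9me3 was 44.4% with domains of at least 500 kb, 44.5% on autosomes, 42.8% without chromosome 19 and 44.8% without borders. Without chromosome 19, 14.7% of genes in both were marked. The cause of these changes was not tested. The remaining 93 values stayed within their 95% interval (shares) or within 1.5 times (lengths and densities). For the shares of length, that interval counted 1 kb bins as independent, which neighbouring bins are not. It is therefore too narrow, and the small changes listed for these shares are not read as shifts. No paired analysis was possible because each target and condition has 1 list with no value per replicate, and for the same reason no replicate could be left out. The depth of the libraries is unknown, so weak domains and peaks may be missing from a list.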
